A study of Homo sapiens with 54 samples.

Results

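The mitochondrial ribosomal proteins are the nuclear-encoded protein components of the ribosome that works inside mitochondria. They were followed in 2 human tumour lines. HCT116 derives from a colorectal carcinoma. HepG2 comes from a liver tumour and is described by the sample labels as a liver cancer stem cell. The genes were taken by symbol: every entry of the expression table named MRPL or MRPS with a number and, where present, a letter A, B or C, with pseudogenes and alternate-copy entries left out. That gave 77 genes of the 50037 entries in the table. Cells had received Torin1, an inhibitor of the mTOR kinase, at 1 µM, tumour necrosis factor (TNF-α) at 100 ng/mL, interleukin-6 (IL-6) at 50 ng/mL or interleukin-10 (IL-10) at 50 ng/mL, each for 3 or 6 h. Untreated cultures, given the same volume of medium alone (NC), carry no time label. Both lines were grown in the same serum-supplemented medium, and no genotype other than that of the line is given. The 54 libraries form 18 groups of 3, with 9 groups for each line. All libraries were made from poly(A) RNA, and levels are given as FPKM, sequenced fragments scaled to transcript length and library size. The sizes recovered from the values were 0.998 to 1.002 times those of median-of-ratios scaling, which takes the median gene ratio between libraries. They were not proportional to total reads.

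Mitochondrial ribosomes translate only the few membrane proteins of the respiratory chain that mitochondrial DNA encodes. Their small subunit reads the messenger RNA, and their large subunit joins amino acids and feeds the new chain to the inner membrane. All of their proteins are made in the cytosol from nuclear genes and imported, whereas their RNAs are transcribed in the organelle, so both genomes contribute to one particle. Some of the proteins descend from bacterial ribosomal proteins and others are found only in mitochondria. mTOR kinase complexes are known to control the production of ribosomes and of many mitochondrial proteins, mostly at the level of translation.

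Of the 77 genes, 51 encode proteins of the large subunit, among them MRPS30 and MRPS18A in spite of their symbols, and 26 encode proteins of the small subunit. By the unified ribosomal protein names, 46 have a bacterial homologue and 31 are found only in mitochondria. The genes lie on 21 different chromosomes. MRPS36, now named KGD4 and counted as a subunit of 2-oxoglutarate dehydrogenase, carries its newer symbol in the table and is outside the set. Exons of 41 of the 77 overlap those of another gene on the same or the other strand, and since no source used here states that counting used strand, reads of such partners cannot be told apart. MRPL42, MRPL45 and MRPS31 also have pseudogenes with entries of their own, with which reads could be shared.

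Levels were tested for 72 of the 77, those that reached 1 FPKM in 3 or more of a line's 27 libraries, and the same 72 passed in both lines. The 5 others were listed at or near 0. MRPL23, MRPS12 (the decoding protein uS12m) and MRPS24 reached at most 0.00617, 0.0316 and 0.0661 FPKM in any library, MRPL45 reached 0.783 FPKM and MRPS18B 1.25 FPKM. Of these, MRPL23, MRPL45, MRPS12 and MRPS18B have alternate-copy entries, of which MRPL45_1 held 23.2 to 45.2 FPKM. MRPS12_1 reached 13.9 FPKM and MRPS18B_3 13.0 FPKM. MRPS24 has no such entry, and its exons overlap those of URGCP-MRPS24 on the same strand. A value near 0 for these 5 genes can be a failed estimate, and nothing is said about their expression.

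Promoter sequence is shown for 6 genes on which the results below turn. MRPS6 was among the 6 largest falls against NC after Torin1 in both lines at both hours, and MRPL36 was so in HCT116 at both hours and in HepG2 at 3 h. MRPS30 and MRPS31 moved in opposite directions in the 2 lines at 6 h. MRPL28 and MRPL50 differed between the lines in level and in the difference of Torin1 from IL-10 at 6 h. The RefSeq promoter table (build GRCh38.p14), which gives 250 bases before to 50 bases after a start, holds 69 of the 77 genes, and for 11 of them with several starts the first listed one was used. Each line gives the longest stretch before the start that is free of annotated exons, up to 150 bases, in the direction of transcription. Capitals mark the letters of the searched motifs.
MRPL36, chr5:1799896-1800045, minus strand: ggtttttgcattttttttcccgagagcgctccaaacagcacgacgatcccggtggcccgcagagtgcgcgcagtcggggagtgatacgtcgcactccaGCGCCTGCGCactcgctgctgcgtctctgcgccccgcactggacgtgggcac
MRPS6, chr21:34073373-34073522, plus strand: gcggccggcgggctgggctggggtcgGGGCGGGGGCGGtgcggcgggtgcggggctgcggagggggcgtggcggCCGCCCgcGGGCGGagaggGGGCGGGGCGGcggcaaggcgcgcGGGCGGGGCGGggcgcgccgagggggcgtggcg
MRPS30, chr5:44808778-44808924, plus strand: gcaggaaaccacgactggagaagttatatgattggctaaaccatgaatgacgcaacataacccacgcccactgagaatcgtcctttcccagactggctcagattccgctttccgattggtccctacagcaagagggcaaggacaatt
MRPS31, chr13:40771191-40771340, minus strand: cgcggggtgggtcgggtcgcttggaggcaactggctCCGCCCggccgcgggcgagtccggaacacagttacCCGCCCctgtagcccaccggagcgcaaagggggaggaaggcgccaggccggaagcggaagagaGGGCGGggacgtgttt
MRPL28, chr16:370539-370688, minus strand: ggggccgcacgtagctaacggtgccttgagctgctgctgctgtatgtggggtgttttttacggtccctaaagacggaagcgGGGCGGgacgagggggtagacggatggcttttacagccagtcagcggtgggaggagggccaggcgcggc
MRPL50, chr9:101398619-101398768, minus strand: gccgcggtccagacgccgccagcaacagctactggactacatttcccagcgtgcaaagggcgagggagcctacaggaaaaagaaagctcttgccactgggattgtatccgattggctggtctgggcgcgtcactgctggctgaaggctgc

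Motif letters were searched on both strands of the whole 300-base windows, over the 69 genes and over 15843 windows of protein-coding genes. The letters GCGC, any base and TGCGC, read by the transcription factor NRF1, were in 8 of the 69 windows (11.6%), against 8.58% of protein-coding windows. The letters CCGGAAGT, of the ETS family to which GABPA belongs, were in 11 (15.9%), against 6.19%. The letters AAGATGGC, of the factor YY1, were in 20 (29%), against 3.91% of protein-coding windows, and in 15 of these 20 they lay at or after the start. The GC box GGGCGG, in 42 (60.9%), and the E-box CACGTG, in 6 (8.7%), were about as frequent as among protein-coding windows, of which 58.5% and 8.88% held them. In the stretches shown, MRPL36 carries the NRF1 letters, MRPS6 8 GC boxes, some of which overlap, MRPS31 3 and MRPL28 1. MRPS30 and MRPL50 carry none of the 5 motifs in the bases shown. In the whole windows both hold the YY1 letters after the start, and MRPL50 holds GC boxes farther before it. MRPL36 also has the E-box and YY1 letters before its start, outside the bases shown. A match of letters is a description and not a bound site. At 6 h of Torin1, 5 of 7 tested genes with the NRF1 letters and 41 of 58 without them fell against NC in HCT116, and 5 of 7 and 42 of 58 did so in HepG2. With and without the YY1 letters, 14 of 16 and 32 of 49 fell in HCT116, and 11 of 16 and 36 of 49 in HepG2. No test compared these shares.

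HCT116 libraries held 38.5 to 55.7 M gene reads each, as recovered from the FPKM steps, and HepG2 libraries 46.3 to 93.7 M. The third HepG2 IL-6 3 h library stood apart from the other two of its group, and results that rest on it are given with and without it. Hepatocyte markers summed to 12040 to 14620 FPKM over HepG2 libraries and 1.51 to 7.82 FPKM over HCT116 libraries. Of 6 colon epithelium markers, CDX2 held 1.41 to 3.13 FPKM in HCT116 and 5 (VIL1, CDX1, KRT20, LGR5 and CEACAM5) were at or under 0.0513 FPKM there, while HepG2 held 38.2 to 52.7 FPKM of VIL1 and 26.8 to 56.4 FPKM of LGR5. Defining colon markers were thus absent from HCT116 apart from CDX2. Blood cell markers stayed at or under 0.591 FPKM in either line and fibroblast markers at or under 1.81 FPKM. Libraries of a group differed beyond sampling noise in every pair. No label ties them to separate cultures, so a p-value here reflects variation among these libraries, and that variation may be technical.

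In untreated cells the 72 genes spanned a 21.8-fold range of mean level in HCT116 NC (median 31.8 FPKM) and a 19.3-fold range in HepG2 NC (median 31.9 FPKM). The highest in both lines was MRPL51, a mitochondria-specific protein of the large subunit, at 159 ± 2.68 FPKM in HCT116 NC and 133 ± 1.52 FPKM in HepG2 NC (SD, n = 3 each). MRPL3 stood at 151 and 109.5 FPKM and MRPL12, the stalk protein that recruits translation factors, at 139 and 113 FPKM in HCT116 NC and HepG2 NC. The next places were held by MRPS22 (89.4 FPKM) and MRPS7 (89.0 FPKM) in HCT116 NC, which lay within their spread of each other, and by MRPL33 (104 FPKM) and MRPL37 (98.9 FPKM) in HepG2 NC. The lowest were MRPS14, MRPL55, MRPS33, MRPS25 and MRPS11 in HCT116 NC, between 7.31 and 10.6 FPKM. In HepG2 NC they were MRPL42, MRPS25, MRPS18C, MRPS11 and MRPS33, between 6.87 and 10.5 FPKM. The small-subunit proteins therefore took most of the low places in both lines.

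**Figure D1:**
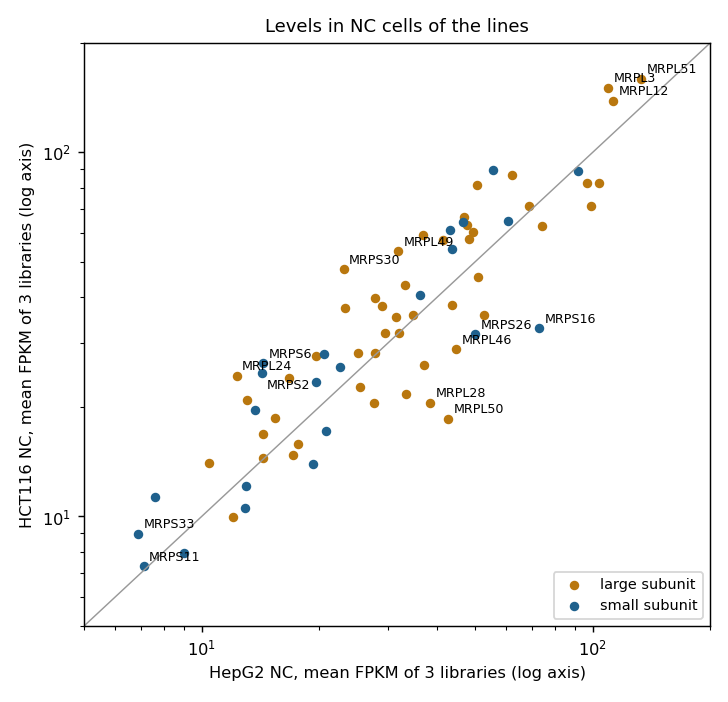
Mean FPKM of the 72 tested genes in HCT116 NC (vertical axis) and HepG2 NC (horizontal axis), 3 libraries each, both axes logarithmic; colours give the subunit and the grey line marks equal levels. MRPS30 and MRPL24 lie farthest above the line and MRPL50 and MRPS16 farthest below it.

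Between the untreated lines, 39 of the 72 genes were higher and 22 lower in HCT116 NC than in HepG2 NC (limma on log2(FPKM + 1), Benjamini-Hochberg adjusted p under 0.05 over 12992 genes), where 42.2% of all genes tested were higher and 43.3% lower. The median difference of the 72 was 0.17 on the log2 scale, against -0.01 for all genes. With levels scaled to total reads, which shifts the median of all genes to 0.19, 50 were higher and 11 lower. MRPS30 (mL65) held 48.6, 46.5 and 47.9 FPKM in HCT116 NC, against 23.4, 22.6 and 23.2 FPKM in HepG2 NC, a log2 difference of 1.02 ± 0.03 (SE, adjusted p = 7.54e-28). MRPL50 (mL50) held 19.4, 18.1 and 18.2 FPKM in HCT116 NC, against 44.3, 41.3 and 42.4 FPKM in HepG2 NC, a difference of -1.16 ± 0.04 (adjusted p = 1.77e-26). The libraries of the lines did not overlap for either gene. Also higher in HCT116 NC were MRPL24 (24.4 against 12.3 FPKM), MRPS6 (26.3 against 14.4 FPKM), MRPS2 (24.8 against 14.2 FPKM) and MRPL49 (53.5 against 31.8 FPKM). MRPS16 (32.9 against 73.1 FPKM), MRPL28 (20.5 against 38.4 FPKM), MRPS26 (31.6 against 50.1 FPKM) and MRPL46 (28.8 against 44.8 FPKM) were lower in HCT116 NC. A line difference cannot be told apart from anything else that differed between the cultures.

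Summed over the 77 genes, the level was 3046 ± 12.9 FPKM in HCT116 NC and 2791 ± 31.7 FPKM in HepG2 NC (SD, n = 3 each). Small-subunit genes made up 765 ± 2.65 and 702 ± 6.78 FPKM of it in HCT116 NC and HepG2 NC. After Torin1 the sum in HCT116 was 2737 ± 35.4 FPKM at 6 h and 2857 ± 24.5 FPKM at 3 h, 10.1% and 6.19% below NC. In HepG2 it was 2356 ± 68.8 FPKM at 6 h and 2486 ± 40.7 FPKM at 3 h, 15.6% and 10.9% below NC. Every Torin1 library of a line lay below every NC and IL-10 library of that line. FPKM is scaled to library size, so these sums are relative levels. A change in the number of cells or in the RNA per cell cannot be read from them.

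**Figure D2:**
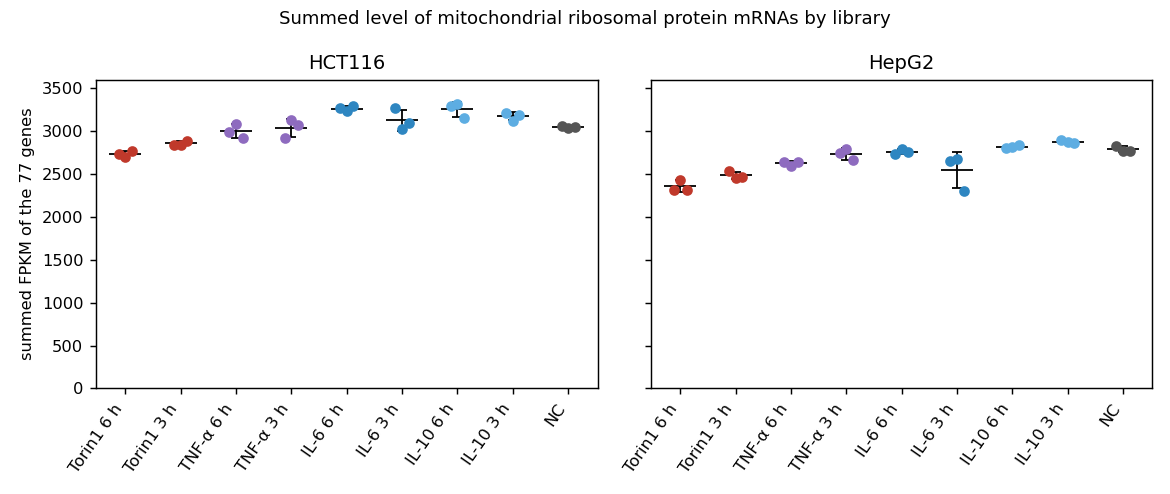
Sum of FPKM over the 77 genes in each library (points) with the mean and SD of 3 libraries (black lines), by group, for HCT116 (left) and HepG2 (right). The Torin1 6 h libraries are the lowest in HCT116, and in HepG2 they lie between 2316 and 2436 FPKM; 1 HepG2 IL-6 3 h library is at 2305 FPKM, apart from the other two.

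After 6 h, Torin1 had lowered most of these mRNAs by modest amounts against NC in both lines. At 6 h in HCT116, 49 of the 72 genes fell, 3 rose and 20 did not pass the test against NC (limma, adjusted p under 0.05), where 31.5% of all 11395 genes tested fell and 25.8% rose. At 6 h in HepG2, 50 fell, 4 rose and 18 did not pass, where 33.8% of all 11280 genes fell and 26.1% rose. The share that fell was thus 68.1% in HCT116 and 69.4% in HepG2, and the median log2 change was -0.20 and -0.24, against -0.02 and -0.03 for all genes tested. At 3 h, 31 fell and 2 rose in HCT116, where 28.6% of all genes fell and 25.1% rose, and 44 fell and 2 rose in HepG2, where 26.1% fell and 19.4% rose. The falls at 6 h ranged over log2 changes of -0.58 to -0.09 in HCT116 and -0.72 to -0.09 in HepG2. On this scale the smallest and largest falls left 0.939 and 0.668 of the NC value in HCT116 and 0.939 and 0.606 in HepG2.

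NC carries no time, so Torin1 was also set against IL-10 of the same hour. At 6 h, 59 fell and 2 rose in HCT116, where 33.7% of all genes fell and 23.6% rose, and 50 fell and 4 rose in HepG2, where 30.3% fell and 28.7% rose. At 3 h, 45 fell and 3 rose in HCT116, where 26.7% of all genes fell and 17.6% rose, and 47 fell and 2 rose in HepG2, where 24% fell and 21.5% rose. The medians at 6 h were -0.26 in HCT116 and -0.28 in HepG2, against -0.03 and -0.01 for all genes tested. The comparisons with NC and with IL-10 share their Torin1 libraries. In HCT116, 24 genes rose after 6 h of IL-10 against NC, and the summed level of the set was 106.8% of NC. Part of the HCT116 difference from IL-10 at 6 h thus lies in the IL-10 libraries.

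**Figure D3:**
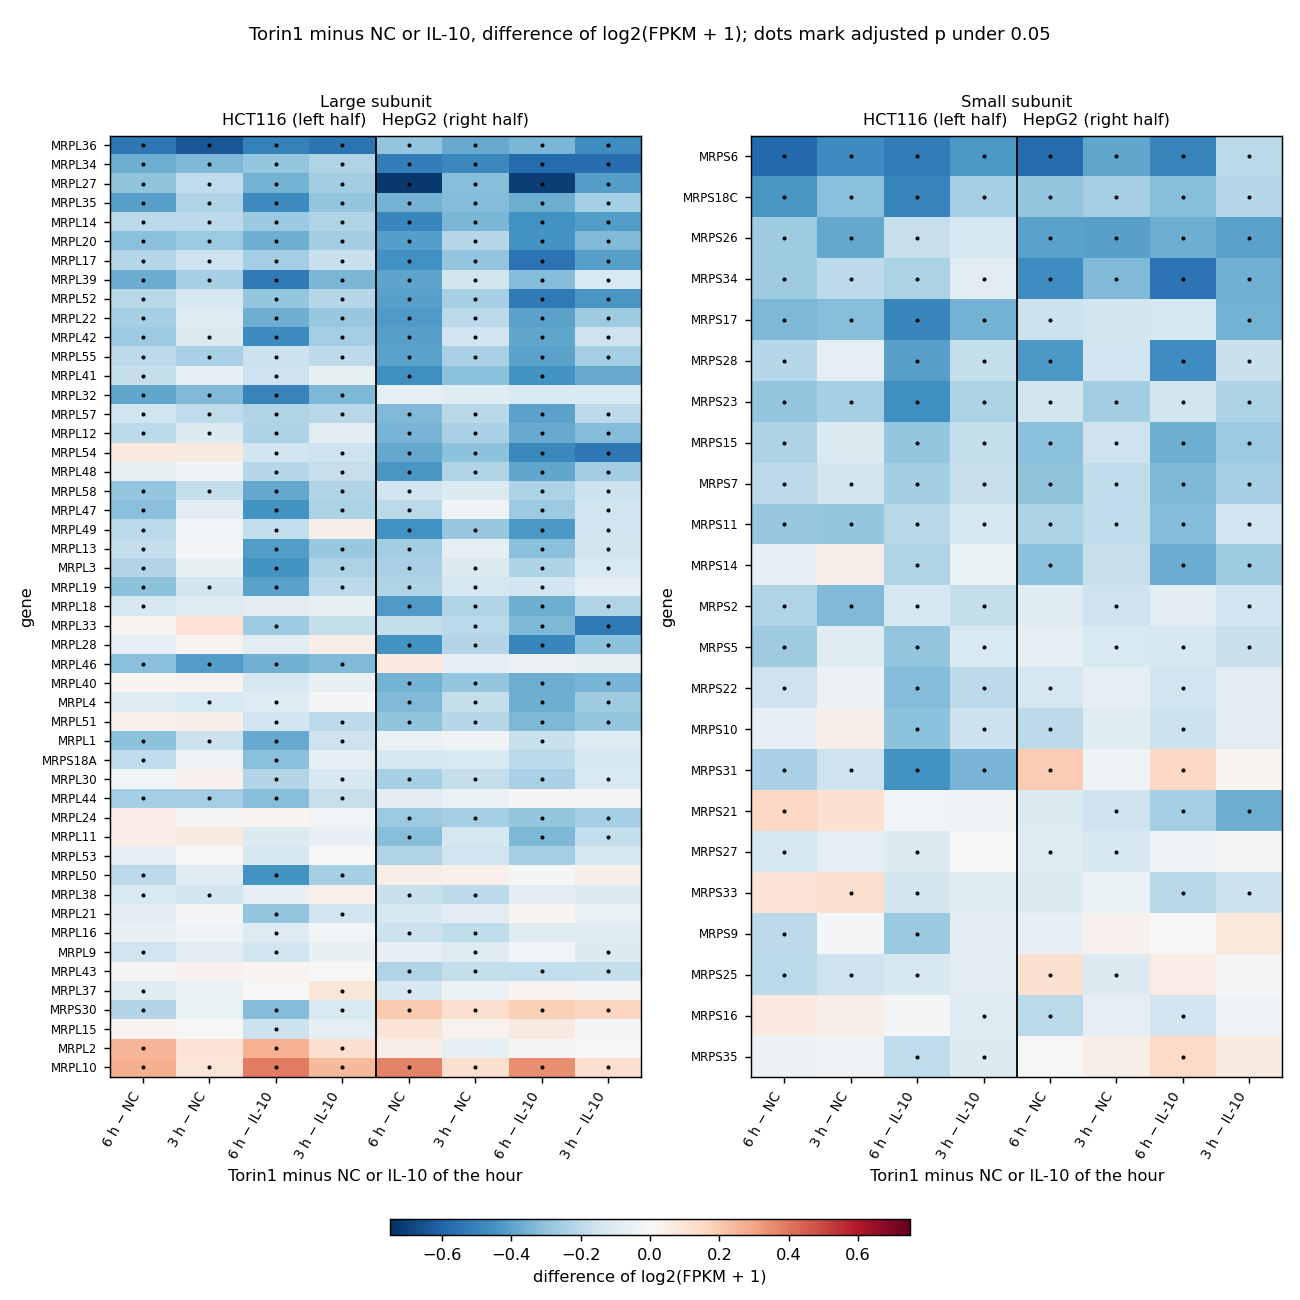
Difference of log2(FPKM + 1) between Torin1 and NC or IL-10 of the same hour (blue lower, red higher after Torin1) for 49 large-subunit genes (left panel) and 23 small-subunit genes (right panel); within a panel HCT116 columns are left of the black line and HepG2 columns right of it, and dots mark adjusted p under 0.05. MRPL10, in the bottom row of the left panel, is red in all 8 columns.

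Neither subunit carried the falls alone. At 6 h in HCT116, 32 of 49 large-subunit genes fell against NC and 2 rose (median log2 -0.19), and 17 of 23 small-subunit genes fell and 1 rose (median -0.22). At 6 h in HepG2, 35 of 49 large-subunit genes fell and 2 rose (median -0.27), and 15 of 23 small-subunit genes fell and 2 rose (median -0.16). Of the proteins with a bacterial homologue, 28 of 43 fell in HCT116 and 31 of 43 in HepG2. Of those found only in mitochondria, 21 of 29 fell in HCT116 and 19 of 29 in HepG2. No test compared these classes.

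Among the large-subunit genes, MRPL36 (bL36m), a very small protein of the large subunit, had 26.8, 26.1 and 28.3 FPKM in HCT116 after 6 h of Torin1 and 25.9, 24.5 and 24.97 FPKM after 3 h, against 40.6, 40.3 and 38.2 FPKM in NC. In HepG2 it had 23.3, 22.4 and 21.6 FPKM at 6 h and 23.0, 20.2 and 20.3 FPKM at 3 h, against 28.1, 28.2 and 26.8 FPKM in NC. All Torin1 libraries lay below all NC libraries in both lines. In HCT116 the log2 change was -0.54 ± 0.05 at 6 h (adjusted p = 3.68e-09) and -0.64 ± 0.05 at 3 h (adjusted p = 2.95e-10). In HepG2 it was -0.29 ± 0.08 at 6 h (adjusted p = 0.00503) and -0.38 ± 0.08 at 3 h (adjusted p = 0.00102).

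MRPL27 (bL27m), whose bacterial homologue reaches into the peptidyl transferase centre, had 57.2, 59.3 and 57.8 FPKM in HepG2 after 6 h of Torin1 and 81.8, 72.5 and 77.2 FPKM after 3 h, against 98.6, 92.3 and 98.8 FPKM in NC. The change at 6 h was -0.72 ± 0.07 (adjusted p = 2.8e-08), and that between 6 h and 3 h -0.40 ± 0.07 (adjusted p = 0.000173). In HCT116 it had 66.1, 64.3 and 69.5 FPKM at 6 h, against 83.9, 80.9 and 81.9 FPKM in NC. MRPL34 (bL34m) had 18.6, 18.8 and 19.8 FPKM in HepG2 at 6 h, against 28.5, 27.1 and 27.5 FPKM in NC, a change of -0.52 ± 0.08 (adjusted p = 9.84e-06). Its neighbour on the other strand, ABHD8, whose exons overlap, also fell in HepG2 (-0.34, adjusted p = 0.00177). The other large falls at 6 h in HepG2 were MRPL14 (-0.49) and MRPL41 (-0.46, adjusted p = 0.0154). The call of MRPL41 ended without NC replicate 1 (adjusted p = 0.0582) or Torin1 6 h replicate 2 (adjusted p = 0.057). In HCT116 they were MRPL35 (-0.41, adjusted p = 3.3e-07), MRPL32 (-0.39, 61.9 against 81.4 FPKM) and MRPL39 (-0.37, adjusted p = 2.88e-07). PSMA2, on the other strand with exons that overlap those of MRPL32, also fell in HCT116 at 6 h (116 against 131 FPKM, -0.17, adjusted p = 0.00312).

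In the small subunit, MRPS6 (bS6m), which sits on the platform, had 19.0, 17.1 and 15.7 FPKM in HCT116 after 6 h of Torin1 and 19.4, 18.7 and 17.9 FPKM after 3 h, against 26.97, 24.9 and 27.1 FPKM in NC. The HepG2 libraries held 9.48, 9.68 and 8.72 FPKM at 6 h and 11.3, 10.5 and 10.5 FPKM at 3 h, against 15.1, 14.3 and 13.7 FPKM in NC. The groups did not overlap in either line, and the change at 6 h was -0.58 ± 0.05 in HCT116 (adjusted p = 1.27e-08) and -0.58 ± 0.06 in HepG2 (adjusted p = 6.21e-08). MRPS6 shares exons with SLC5A3, an inositol transporter gene on the same strand. SLC5A3 fell in HCT116 at 6 h (-0.56, adjusted p = 4.88e-10) and was at -0.07 in HepG2 (adjusted p = 0.174). MRPS18C fell by 0.43 on the log2 scale in HCT116 (8.12 against 11.3 FPKM) and by 0.29 in HepG2 (6.01 against 7.58 FPKM). Its paralogue of the large subunit, MRPS18A, fell in HCT116 (-0.19 ± 0.06, adjusted p = 0.0151) and was at -0.12 ± 0.09 in HepG2 (adjusted p = 0.234). The call of MRPS18A in HCT116 ended without NC replicate 2, NC replicate 3 or Torin1 6 h replicate 2 (adjusted p 0.0506 to 0.091). MRPS34 (-0.47, adjusted p = 9.11e-06) was the other small-subunit gene among the 6 largest falls at 6 h in HepG2. MRPS26 fell in HCT116 at 3 h (-0.38, adjusted p = 2.44e-05) and in HepG2 at 3 h (-0.41, adjusted p = 6.66e-05).

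MRPL10 (uL10m), the base of the stalk to which MRPL12 binds, went the other way and rose in both lines. It had 45.1, 46.1 and 45.9 FPKM in HCT116 after 6 h of Torin1 and 39.9, 41.2 and 40.0 FPKM after 3 h, against 37.9, 37.6 and 37.9 FPKM in NC. In HepG2 it had 37.3, 38.9 and 36.8 FPKM at 6 h and 31.2, 31.2 and 31.98 FPKM at 3 h, against 28.8, 28.9 and 28.9 FPKM in NC. All Torin1 libraries were above all NC libraries. The change at 6 h was 0.27 ± 0.04 in HCT116 (adjusted p = 2.61e-06) and 0.37 ± 0.05 in HepG2 (adjusted p = 7.45e-07). At 3 h it was 0.09 ± 0.04 in HCT116 (adjusted p = 0.0386) and 0.12 ± 0.05 in HepG2 (adjusted p = 0.0419). Both 3 h calls ended on leaving out any 1 of the 6 libraries compared, with adjusted p 0.0534 to 0.126 for MRPL10 in HCT116 and 0.0669 to 0.114 in HepG2. MRPL10 was the only one of the 72 that rose in both lines, at either hour and against either NC or IL-10. Its rise in HepG2 at 3 h against IL-10 (0.12) ended on leaving out any 1 of 5 libraries (all but IL-10 3 h replicate 2), with adjusted p 0.0589 to 0.232, and was 0.07 without IL-10 3 h replicate 1.

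The other stalk proteins did not follow MRPL10. MRPL12 (bL12m) had 116, 121 and 125 FPKM in HCT116 at 6 h, against 134, 141 and 141 FPKM in NC, and 85.6, 93.1 and 86.3 FPKM in HepG2 at 6 h, against 115, 111 and 113 FPKM in NC. It fell in both lines (-0.20 ± 0.04, adjusted p = 0.000116 in HCT116, and -0.35 ± 0.07, adjusted p = 0.000159 in HepG2). MRPL11 (uL11m), at the stalk base, had 63.0, 58.0 and 59.1 FPKM in HCT116 at 6 h, against 60.3, 56.7 and 56.1 FPKM in NC, which overlap. The HepG2 libraries held 38.9, 39.9 and 37.0 FPKM at 6 h, against 48.8, 47.3 and 49.0 FPKM in NC. MRPL11 fell in HepG2 (-0.32 ± 0.07, adjusted p = 0.000491) and was at 0.06 ± 0.05 in HCT116 (adjusted p = 0.401).

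MRPL2 (uL2m), of the peptidyl transferase region, rose in HCT116 at 6 h, with 34.0, 32.1 and 35.2 FPKM against 27.1, 29.3 and 28.1 FPKM in NC (0.25 ± 0.05, adjusted p = 0.000115). KLC4, a kinesin light chain gene on the other strand whose exons overlap those of MRPL2, also rose in HCT116. It stood at a low level, 1.56 against 0.93 FPKM in NC (0.41, adjusted p = 1.36e-05). MRPS21 was the remaining rise in HCT116 at 6 h (0.15 ± 0.05, adjusted p = 0.0113), a call that ended without NC replicate 3 (adjusted p = 0.0521). In HepG2 at 6 h MRPS30, MRPS31 and MRPS25 rose beside MRPL10.

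**Figure D4:**
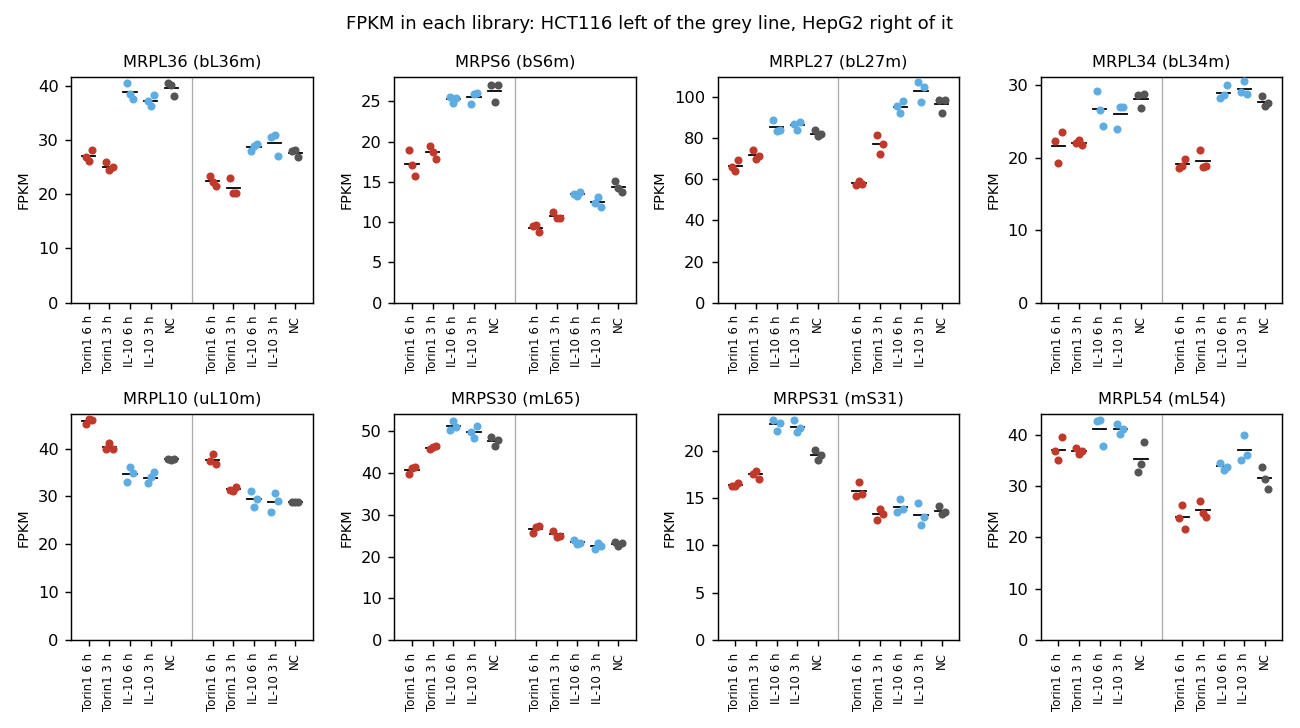
FPKM of 8 genes in each library (points) with group means (lines), with Torin1 6 h, Torin1 3 h, IL-10 6 h, IL-10 3 h and NC from left to right for each line. MRPL36, MRPS6, MRPL27 and MRPL34 are lower after Torin1 in both lines, MRPL10 is higher at 6 h, and MRPS30 and MRPS31 go down in HCT116 and up in HepG2 at 6 h.

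The lists of genes that fell overlapped between the lines. At 6 h against NC, 36 genes fell in both, 73.5% of the 49 in HCT116 and 72% of the 50 in HepG2. With 49 and 50 of the 72 tested genes falling, a large overlap arises without any agreement gene by gene. The overlap was not tested, and the share of all genes that fell in both lines was not taken. At 3 h against NC, 24 fell in both, 77.4% of the 31 in HCT116 and 54.5% of the 44 in HepG2. No gene rose in HCT116 and fell in HepG2 at either hour. MRPS30, MRPS31 and MRPS25 fell in HCT116 and rose in HepG2 at 6 h against NC. Against IL-10 of 6 h these were MRPS30, MRPS31 and MRPS35, and at 3 h MRPS30 against IL-10 and none against NC. MRPS35 had 13.5 FPKM after Torin1 against 15.5 FPKM after IL-10 in HCT116 (-0.19, adjusted p = 2.3e-05) and 19.3 against 17.4 FPKM in HepG2 (0.14, adjusted p = 0.00137). In NC it held 13.9 FPKM in HCT116 and 19.3 FPKM in HepG2, and its 6 h Torin1 change against NC passed in neither line. In HepG2 MRPS35 fell after 6 h of IL-10 against NC (-0.14, limma adjusted p = 0.0117, and 0.0604 without NC replicate 1). Its opposite directions against IL-10 thus lie at least partly in the IL-10 libraries. The rise of MRPS31 against IL-10 in HepG2 (adjusted p = 0.0207) ended without IL-10 6 h replicate 1 or 3 or Torin1 6 h replicate 2 (adjusted p 0.0634 to 0.107).

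MRPS30 had 39.7, 41.3 and 41.4 FPKM in HCT116 after 6 h of Torin1 and 45.7, 46.1 and 46.5 FPKM after 3 h, against 48.6, 46.5 and 47.9 FPKM in NC. In HepG2 it had 25.6, 27.1 and 27.2 FPKM at 6 h and 26.2, 24.8 and 24.99 FPKM at 3 h, against 23.4, 22.6 and 23.2 FPKM in NC. At 6 h the groups did not overlap in either line, and the directions were opposite. The Torin1 effect at 6 h was lower in HCT116 than in HepG2 by 0.42 ± 0.05 on the log2 scale (adjusted p = 1.56e-09 over 9683 genes), and by 0.51 against IL-10 (adjusted p = 1.01e-11).

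MRPS31 (mS31), a protein of the small subunit's head, had 16.2, 16.3 and 16.6 FPKM in HCT116 at 6 h and 17.6, 17.9 and 17.0 FPKM at 3 h, against 20.1, 19.1 and 19.6 FPKM in NC. The HepG2 libraries held 15.3, 16.7 and 15.4 FPKM at 6 h and 12.7, 13.9 and 13.4 FPKM at 3 h, against 14.2, 13.3 and 13.6 FPKM in NC. In HCT116 all Torin1 libraries were below NC, while in HepG2 the 6 h libraries were above it and those of 3 h overlapped it. The difference between the lines at 6 h was -0.44 ± 0.07 (adjusted p = 1.05e-06). MRPS31 has pseudogene copies, so its values are uncertain to the extent that reads were shared. MRPS25 rose in HepG2 by less (0.12 ± 0.04, adjusted p = 0.0145), a call that ended without Torin1 6 h replicate 1 (adjusted p = 0.111) and with total-read scaling (adjusted p = 0.069).

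Tested as a difference of effects, 25 of the 72 had a Torin1 effect at 6 h against NC that was higher in HCT116 than in HepG2 and 10 one that was lower, where 26.4% and 23.7% of all 9683 genes tested were. At 3 h, 14 were higher and 5 lower, where 20.4% and 19.5% of all genes were; with total-read scaling 10 were higher and 8 lower. Against IL-10, 20 were higher and 22 lower at 6 h, where 20.8% and 30.5% of all genes were, and 13 were higher and 11 lower at 3 h, where 14.1% and 22.3% were. These splits depend on the scaling: at 6 h against IL-10 they were 27 and 14 with total-read scaling and 25 and 16 with voom, a precision-weighted fit to recovered reads, and at 3 h 16 and 8 with voom. MRPL27 fell more in HepG2 at 6 h (difference 0.42 ± 0.09, adjusted p = 0.000141), as did MRPL11 (0.38 ± 0.09, adjusted p = 0.000721).

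MRPL54 (mL54) had 36.8, 35.1 and 39.6 FPKM in HCT116 after 6 h of Torin1, against 32.7, 34.3 and 38.7 FPKM in NC, which overlap. The HepG2 libraries held 23.8, 26.4 and 21.6 FPKM, against 33.7, 31.4 and 29.4 FPKM in NC, with no overlap. Its effects differed by 0.46 ± 0.14 (adjusted p = 0.00612). MRPL28 (bL28m) had 19.4, 18.7 and 20.7 FPKM in HCT116, against 20.3, 20.9 and 20.4 FPKM in NC, and 27.01, 30.7 and 26.1 FPKM in HepG2, against 37.6, 39.0 and 38.6 FPKM in NC. MRPL50 went the other way against IL-10 of 6 h: it had 16.2, 16.1 and 15.9 FPKM in HCT116 after Torin1, against 22.6, 23.3 and 20.9 FPKM after IL-10, and 43.4, 44.7 and 43.9 FPKM in HepG2, against 44.8, 45.7 and 43.1 FPKM after IL-10. In NC MRPL50 held 18.5 FPKM in HCT116 and 42.7 FPKM in HepG2. In HCT116 it was among the 6 largest rises of IL-10 6 h over NC, so part of its HCT116 difference lies in the IL-10 libraries. The difference between the lines of the 6 h effects against IL-10 was -0.43 ± 0.06 for MRPL50 (adjusted p = 7.58e-08) and 0.41 ± 0.08 for MRPL28 (adjusted p = 5.75e-05). MRPL28 shares bases with PGAP6, a gene on the same strand. PGAP6 fell in HepG2 at 6 h against NC (-0.14, adjusted p = 0.012).

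Torin1 at 6 h was also set against Torin1 at 3 h. In this comparison 14 of the 72 were lower and 3 higher at 6 h in HCT116, where 16.3% of all genes were lower and 14.1% higher, and 20 were lower and 3 higher in HepG2, where 19.3% were lower and 17% higher. With total-read scaling the split in HCT116 was 11 lower and 5 higher, and without Torin1 3 h replicate 3 it was 10 and 1, so that the HCT116 shares lay near those of all genes for lower calls. In HepG2 the share of lower calls, 27.8%, was above that of all genes. MRPL10 was higher at 6 h in both lines (0.18 ± 0.04, adjusted p = 0.00108 in HCT116, and 0.25 ± 0.05, adjusted p = 0.000243 in HepG2). In HCT116 MRPL47 (-0.23) and MRPS9 (-0.18) had the largest drops between the hours. In HepG2 these were MRPL27, MRPS28 (-0.29) and MRPL42 (-0.26), and MRPS31 (0.23) and MRPS25 (0.22) were the other rises.

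The cytosolic ribosome gave a picture that depended on the line and the comparator. Of its 82 tested protein genes, 62 rose and 1 fell at 6 h of Torin1 against NC in HCT116 (median log2 0.22), and 1 rose and 12 fell in HepG2 (median -0.06). Against NC, 25.8% of all genes rose in HCT116 and 33.8% fell in HepG2. Set against IL-10 of 6 h, 23 cytosolic genes rose and 9 fell in HCT116 (median 0.05), where 23.6% of all genes rose, and 1 rose and 28 fell in HepG2 (median -0.14), where 30.3% of all genes fell. In HCT116 the summed level of the cytosolic ribosomal protein genes was 49517 to 50023 FPKM over NC libraries. It was 51733 to 59661 FPKM over all treated HCT116 libraries, those of IL-10, IL-6 and TNF-α among them. A level above NC was thus not particular to Torin1. The difference between the comparators was not tested.

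Of the 5 partner proteins that carry no MRP symbol, 3 fell and 1 rose at 6 h against NC in HCT116, where 31.5% of all genes fell and 25.8% rose. In HepG2 3 fell, where 33.8% of all genes fell. A list of 5 genes is too short to set apart from these shares. CHCHD1 fell in both lines (-0.19 in HCT116, adjusted p = 0.00911, and -0.55 in HepG2, adjusted p = 7.28e-06), as did AURKAIP1 (-0.15 and -0.41). GADD45GIP1 fell in HepG2 (-0.41, adjusted p = 0.000913) and PTCD3 in HCT116 (-0.13, adjusted p = 0.00228). DAP3, a GTP-binding protein of the small subunit, rose in HCT116 (0.10, adjusted p = 0.00888).

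Of 25 tested factors that assemble the mitochondrial ribosome or modify its RNA, 12 fell and 5 rose at 6 h in HCT116, and 10 fell and 7 rose in HepG2. That is 48% fallen and 20% risen in HCT116, where 31.5% and 25.8% of all genes were, and 40% fallen and 28% risen in HepG2, near the 33.8% and 26.1% of all genes. FASTKD2, which binds the large-subunit RNA, had 10.9 FPKM after Torin1 against 16.2 FPKM in NC in HCT116 (-0.53, adjusted p = 3.54e-10) and was at -0.02 in HepG2 (adjusted p = 0.6). MTERF3 (-0.52, adjusted p = 3.68e-08) and the rRNA methyltransferases MRM2 (-0.39) and MRM3 (-0.38) also fell in HCT116. NOA1, a GTPase of small-subunit assembly, rose in both lines (0.33, adjusted p = 4.53e-08 in HCT116, and 0.62, adjusted p = 1.34e-09 in HepG2). GTPBP10 rose in HepG2 (0.38), where MPV17L2 (-0.33) and NGRN (-0.32) fell.

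For the lists that follow, 31.5% of all genes tested fell and 25.8% rose at 6 h of Torin1 against NC in HCT116, and 33.8% fell and 26.1% rose in HepG2. Of 17 translation factors, 7 fell and 6 rose in HCT116 at 6 h, and 4 fell and 4 rose in HepG2, shares of 41.2% and 35.3% in HCT116 and of 23.5% each in HepG2. Of 14 mitochondrial aminoacyl-tRNA synthetases, which charge the tRNAs, 5 fell and 3 rose in HCT116, and 5 fell and 7 rose in HepG2. TARS2 rose in both lines (0.69, adjusted p = 4.88e-09 in HCT116, and 0.43, adjusted p = 5.31e-07 in HepG2) and LARS2 fell in both (-0.32, adjusted p = 2.04e-06, and -0.35, adjusted p = 2.18e-09). MARS2 fell in HCT116 (-0.63, adjusted p = 1.63e-09). Of the genes of mitochondrial DNA transcription and RNA processing, 6 of 15 fell and 2 rose in HCT116, led by PNPT1 (-0.40) and TRMT10C (-0.38), and 2 of 16 fell and 4 rose in HepG2, led by the rises of MTPAP (0.46) and TWNK (0.46).

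Among nuclear regulators of mitochondrial genes, 6 of 9 tested fell and 1 rose in HCT116 at 6 h, and 1 of 10 fell and 4 rose in HepG2. The coactivator gene PPARGC1A had 5.94 ± 0.32 FPKM after Torin1 against 1.12 ± 0.049 FPKM in NC in HepG2 (1.71 ± 0.05, adjusted p = 3.24e-17). Its relative PPARGC1B had 1.47 ± 0.095 against 2.74 ± 0.029 FPKM in HCT116 (-0.60 ± 0.05, adjusted p = 4.58e-09). NRF1, whose motif letters are given above, fell in HCT116 (-0.50, adjusted p = 2.06e-07) and in HepG2 (-0.15, adjusted p = 0.00475). MYC rose in both lines (0.36, adjusted p = 6.46e-06 in HCT116, and 1.03, adjusted p = 1.85e-13 in HepG2), and GABPA rose in HepG2 (0.17, adjusted p = 0.00788) and fell in HCT116 (-0.11, adjusted p = 0.031).

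None of the RNAs encoded by mitochondrial DNA, with which the particle works, passed the test as lower. Of 15 such genes, 7 rose and none fell at 6 h in HCT116, and 2 rose and none fell in HepG2 by limma. The risen share was 46.7% in HCT116, where 25.8% of all genes rose, and 13.3% in HepG2, below the 26.1% of all genes. None was lower at an unadjusted p under 0.05 in either line, and voom was not run for this list. RNR2, the RNA of the large subunit, rose in both (0.28 in HCT116 and 0.32 in HepG2). The share of reads on such genes was 9.01% to 9.63% in HCT116 after 6 h of Torin1, against 8.09% to 8.58% in NC, and 10.9% to 12.2% in HepG2, against 10.1% to 10.9% in NC. Poly(A) selection captures these RNAs incompletely, and the part of this share in the other results was not tested.

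TNF-α moved fewer of the genes. Against NC, 14 fell and 4 rose at 6 h in HCT116, where 17.1% of all genes fell and 16.7% rose, and 12 fell and 7 rose at 3 h, where 22.4% fell and 19.2% rose. The fallen share was thus near that of all genes at 6 h and below it at 3 h, and the risen shares were below it. With total-read scaling the counts of fallen and risen genes were 32 and 3 at 6 h and 32 and 4 at 3 h, and with median-of-ratios scaling 10 and 7 at 6 h. Without NC replicate 1 the 6 h counts were 7 and 3, and without TNF-α 6 h replicate 3 they were 5 and 5. MRPS6 fell at both hours (-0.26 ± 0.05, adjusted p = 0.000675 at 6 h, and -0.30 ± 0.05, adjusted p = 0.000133 at 3 h), as did MRPS26 (-0.26 and -0.25, the second -0.16 without TNF-α 3 h replicate 1). MRPL54 rose at both hours (0.23 and 0.26), and MRPL14 at 6 h (0.25 ± 0.05, adjusted p = 0.000215). Against the same NC, IL-6 at 3 h also lowered MRPS6 (-0.16, limma adjusted p = 0.0304) and MRPS26 (-0.19, adjusted p = 0.0229), calls that single libraries ended. IL-10 at 3 h had MRPS26 among its 6 largest falls and MRPL54 among its 6 largest rises. MRPS6 was among the 6 largest falls of TNF-α against IL-10 at 3 h. Against NC, TNF-α and time in culture cannot be told apart. Against IL-10 of the hour, 33 fell and 1 rose at 6 h in HCT116, where 24.6% of all genes fell and 17.7% rose. MRPS31 (18.2 against 22.8 FPKM, -0.31, adjusted p = 6.16e-07), MRPS22 (-0.30) and MRPS10 (-0.26) had the largest differences there. In HCT116 NC MRPS31 held 19.6 FPKM, and MRPS10 was among the 6 largest rises of IL-10 6 h over NC. Part of the difference of these genes thus lies in the IL-10 libraries. The summed level of the whole set in HCT116 was 3253 FPKM after IL-10 6 h and 3001 FPKM after TNF-α 6 h, against 3046 FPKM in NC. At 3 h against IL-10, 21 fell and 4 rose, where 22.2% of all genes fell and 14.3% rose. The split was 17 and 6 with median-of-ratios scaling and 17 and 7 with voom.

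In HepG2, 18 fell and 1 rose at 6 h of TNF-α against NC, where 16.8% of all genes fell and 11.9% rose, and 11 fell and 1 rose at 3 h, where 16.9% fell and 12.8% rose. The fallen share at 3 h was thus near that of all genes, and the risen shares were below it. The count at 6 h was 34 in a fit of the compared libraries alone and 10 with median-of-ratios scaling, and it was 8 without NC replicate 1, TNF-α 6 h replicate 2 or TNF-α 6 h replicate 3 and 11 without NC replicate 2 or NC replicate 3. MRPS26 fell at 6 h (41.03 against 50.1 FPKM, -0.28 ± 0.07, adjusted p = 0.00443). MRPS17, an RNA-binding protein of the small subunit, rose at 3 h (24.8 against 19.6 FPKM, 0.33 ± 0.07, adjusted p = 0.000539). It also rose after 3 h of IL-10 against the same NC libraries (0.22, limma adjusted p = 0.0234). That IL-10 call ended without IL-10 3 h replicate 2 (adjusted p = 0.105) or NC replicate 3 (adjusted p = 0.0945). Against IL-10, 21 fell and 2 rose at 6 h, where 15.9% of all genes fell and 18.9% rose, and 9 fell and none rose at 3 h, where 6.06% fell and 10% rose (no rise by voom either, and 2 higher at an unadjusted p under 0.05). The 6 h count was 12 to 15 on leaving out any 1 of the 6 libraries compared. The 3 h count was 2 without TNF-α 3 h replicate 3, 5 without TNF-α 3 h replicate 1 and 4 without IL-10 3 h replicate 2.

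**Figure D5:**
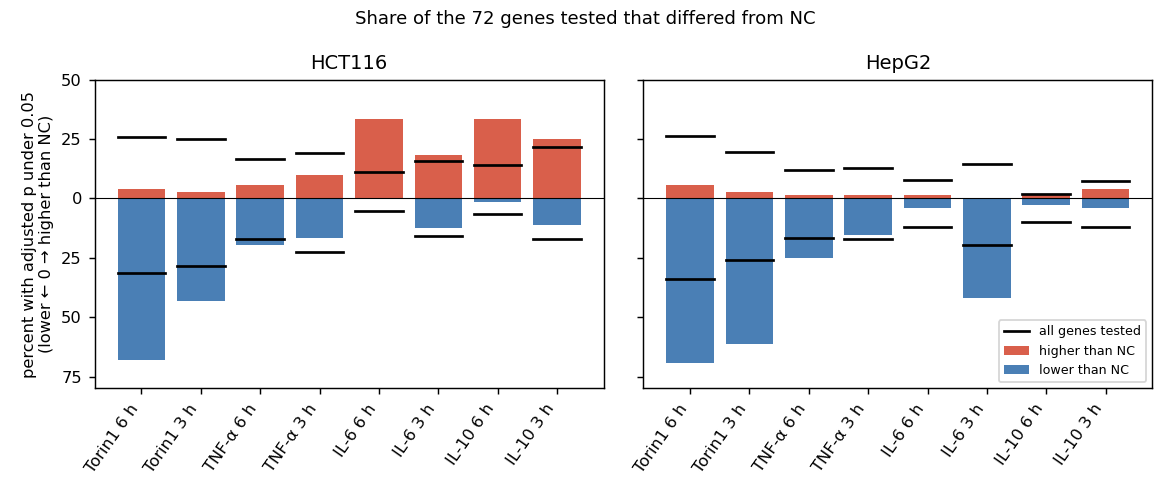
Percent of the 72 tested genes that were higher (upward bars) or lower (downward bars) than NC at adjusted p under 0.05, by treatment, in HCT116 (left) and HepG2 (right); black lines give the same share over all genes tested. The downward bars pass the line clearly for Torin1 in both lines and for IL-6 at 3 h in HepG2, and the upward bars pass it for IL-6 and IL-10 at 6 h in HCT116.

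In HCT116, part of the set was higher in the interleukin groups than in NC, which has no time label, so that the cytokine and the time in culture cannot be told apart. At 6 h of IL-6, 24 rose and none fell against NC, where 11.1% of all genes rose and 5.45% fell (1 fell by voom, and 1 was lower at an unadjusted p under 0.05). At 6 h of IL-10, 24 rose and 1 fell, where 14% rose and 6.49% fell. MRPL13 rose at 6 h of IL-6 (102 against 86.5 FPKM, 0.24 ± 0.05, adjusted p = 0.00199) and of IL-10 (0.24 ± 0.05, adjusted p = 0.00145), and so did MRPL3 (0.21 and 0.22). These 2 comparisons share their NC libraries. With total-read scaling the counts were 10 and 2 for IL-6 and 18 and 5 for IL-10. For IL-6 the count was 13 without IL-6 6 h replicate 1 and 15 without any 1 NC replicate. For IL-10 it was 15 and 16 without IL-10 6 h replicate 1 and replicate 2. At 3 h, 13 rose and 9 fell after IL-6, where 15.9% rose and 15.6% fell, and 18 rose and 8 fell after IL-10, where 21.8% rose and 16.9% fell, shares near those of all genes. With total-read scaling these were 7 and 15 for IL-6 and 11 and 14 for IL-10. The 3 h count was 13 without NC replicate 3 for IL-6 and 15 without IL-10 3 h replicate 1 for IL-10.

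Against IL-10 of the hour, none of the 72 differed after IL-6 in HCT116 at 6 h or at 3 h by limma or by voom. At an unadjusted p under 0.05, 6 were lower and 1 higher at 6 h and 4 lower and 1 higher at 3 h, and of all genes tested 0.0176% were lower and 0.0965% higher at 6 h and 0.0702% lower and 0.167% higher at 3 h by the adjusted threshold. The 72 log2 differences lay between -0.15 and 0.09 at 6 h. Without IL-10 3 h replicate 2, 1 gene passed at 3 h.

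In HepG2, IL-6 at 3 h gave 30 falls and no rise against NC, where 19.5% of all genes fell and 14.5% rose, and 36 falls and no rise against IL-10 of 3 h, where 10.9% fell and 12% rose (no rise by voom, and none higher at an unadjusted p under 0.05). The summed levels of the 3 libraries were 2654, 2680 and 2305 FPKM, so that the third stood apart, and its summed cytosolic ribosomal protein level was 34568 FPKM, against 44333 and 42094 FPKM in the other two. Without it 20 genes fell against NC and 17 against IL-10, and without replicate 2 the counts were 37 and 46. A fit of the compared libraries alone gave 11 and 2. MRPL54 had 27.4, 24.5 and 16.5 FPKM, against 33.7, 31.4 and 29.4 FPKM in NC (-0.48 ± 0.12, adjusted p = 0.00474, and 0.0954 in the fit of the compared libraries alone). Without the third library the change of MRPL54 was -0.27 (adjusted p = 0.0358). MRPL34 had 24.1, 23.7 and 17.7 FPKM, against 28.5, 27.1 and 27.5 FPKM in NC (-0.34 ± 0.08, adjusted p = 0.00221, and 0.0752 in that fit), and its change was -0.20 without the third library (adjusted p = 0.0119). In both genes all 3 libraries lay below NC, and the third was the lowest.

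At 6 h of IL-6 in HepG2, 3 fell and 1 rose against NC, where 11.8% of all genes fell and 7.59% rose; with total-read scaling 6 fell and 1 rose. MRPS5 was the rise (24.3 against 20.7 FPKM, 0.22 ± 0.05, adjusted p = 0.00176), and MRPL18 (-0.19), MRPL16 (-0.15) and MRPS27 (-0.11) fell. The call of MRPL16 ended without IL-6 6 h replicate 1, NC replicate 1 or NC replicate 2 (adjusted p 0.0679 to 0.104). Against IL-10, 4 fell and 1 rose, where 9.28% fell and 14.4% rose. That count was 2 without IL-10 6 h replicate 2 or IL-6 6 h replicate 2 and 3 without IL-10 6 h replicate 3, IL-6 6 h replicate 1 or IL-6 6 h replicate 3, and with total-read scaling 10 fell and 1 rose. IL-10 itself left most genes in HepG2 below the threshold: 2 fell and 1 rose at 6 h against NC, where 9.8% of all genes fell and 1.88% rose, and 3 fell and 3 rose at 3 h, where 11.9% fell and 7.17% rose. At 3 h the split was 2 fallen and 4 risen with median-of-ratios scaling and 2 and 5 with voom, and at 6 h 1 and 1 with total-read scaling. The 6 h count was 1 without IL-10 6 h replicate 2, NC replicate 1 or NC replicate 3. MRPL33 rose at 3 h of IL-10 (131 against 104 FPKM, 0.33 ± 0.08, adjusted p = 0.00533).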

How the data were processed

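RNA levels were measured in 54 libraries by poly(A) RNA sequencing (paired-end, MGISEQ-2000RS, per the labels' protocols). The authors deposited 1 table of FPKM values for all libraries. The submitters' processing notes name FastQC, HISAT2, StringTie, DESeq2 and GRCh38; the tool behind the read counts was not given in the sources used here. Columns of unnamed comparisons in the table were not used.

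The mitochondrial ribosomal protein genes and the other gene lists were chosen with earlier results of these data known. FPKM was tested as log2(FPKM + 1) with limma 3.58.1 in R 4.3.3 (lmFit and eBayes with trend), in 1 fit per line over its 9 groups, on genes that reached 1 FPKM in 3 or more of the line's libraries. p-values were adjusted by Benjamini-Hochberg over all genes tested and called under 0.05; the error beside a log2 change is its SE, and fold changes on this scale understate those of low genes. Differences of the Torin1 effect between lines were interaction terms in a fit of both lines. The script was tested on simulated data.

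Read numbers were recovered from the steps of FPKM: of 36451 genes above 0, 36449 (99.99%) came out whole within 0.01. They gave the depth, 38.5 to 93.7 M reads per library, and served for voom as an alternative. Other alternatives were a pseudocount of 0.1, no filter, median-of-ratios and total-read scaling, a replicate block, a fit of only the libraries compared, and leaving out each library. Genes were named by rule: in each comparison the 6 called members that rose most and the 6 that fell most, the 5 highest and 5 lowest NC levels per line, the 5 largest line differences each way, the 4 largest called differences of the Torin1 effect, the stalk proteins, the MRPS18 paralogues, MRPS12, MRPS36, and the 4 largest called changes of each other list. Overlapping partner genes, and values of a named gene in comparisons where the rule does not name it, were added after their values were seen.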

Additional observations from a re-analysis of the deposited data

Results flagged for a closer look

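For 19 gene and comparison pairs, the 4 largest called differences per comparison together with called stalk genes, the Torin1 effect differed between the lines by the interaction term (HCT116 minus HepG2 effect on the log2 scale, limma). At 6 h against NC it was 0.459 for MRPL54 (adjusted p = 0.00612), 0.422 for MRPL27 (adjusted p = 0.000141), 0.375 for MRPL11 (adjusted p = 0.000721), -0.419 for MRPS30 (adjusted p = 1.56e-09) and -0.438 for MRPS31 (adjusted p = 1.05e-06). At 6 h against IL-10 it was 0.411 for MRPL28 (adjusted p = 5.75e-05), 0.231 for MRPL11 (adjusted p = 0.0312), -0.43 for MRPL50 (adjusted p = 7.58e-08), -0.505 for MRPS30 (adjusted p = 1.01e-11) and -0.609 for MRPS31 (adjusted p = 7.05e-10). MRPS30 and MRPS31 were thus lower in HCT116 against both comparators.

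At 3 h against NC it was 0.373 for MRPL54 (adjusted p = 0.0306), 0.313 for MRPL40 (adjusted p = 0.000681), 0.308 for MRPL33 (adjusted p = 0.0376) and -0.354 for MRPL46 (adjusted p = 0.000924). At 3 h against IL-10 it was 0.38 for MRPL54 (adjusted p = 0.0307), 0.36 for MRPL28 (adjusted p = 0.000641), 0.35 for MRPL33 (adjusted p = 0.02), 0.236 for MRPL12 (adjusted p = 0.018) and -0.363 for MRPS31 (adjusted p = 4.28e-05). Leaving out 1 library ended the calls of MRPL54 and MRPL33 at 3 h against either comparator, of MRPL11 at 6 h against IL-10 (adjusted p 0.0823 to 0.0995) and of MRPL12 at 3 h (adjusted p = 0.0519 without HepG2 IL-10 3 h replicate 2).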

How the results depend on the processing

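Of 35 counts of called genes, a pseudocount of 0.1 and the replicate block moved none by over 1.5 times; with the replicate block the HCT116 count at 6 h of Torin1 against NC was 52, and the numbers did not pair the libraries (3 and 4 of 108 same-numbered pairs correlated above 0.1). No value reversed, and the 8 Torin1 counts against NC or IL-10 stayed within 1.5 times under every alternative. The cause of the moves below was not tested. Total-read scaling gave, in HCT116 against NC, 36 for TNF-α 3 h, 35 for TNF-α 6 h and 12 for IL-6 6 h, in HepG2 against NC 21 for TNF-α 3 h and 7 for IL-6 6 h, and in HepG2 against IL-10 17 for TNF-α 3 h, 43 for TNF-α 6 h and 11 for IL-6 6 h. Without a filter, which tests more genes, the counts were 13 for IL-6 3 h and 13 for IL-6 6 h in HCT116 and 9 for TNF-α 6 h in HepG2 against NC, and 3, 11 and 3 for TNF-α 3 h, TNF-α 6 h and IL-6 6 h in HepG2 against IL-10. TNF-α 6 h in HepG2 against NC gave 10 with median-of-ratios scaling and 10 with voom, and voom gave 8 for IL-6 6 h against IL-10. A fit of only the libraries compared gave 14 for IL-10 6 h in HCT116, 34 for TNF-α 6 h, 11 for IL-6 3 h and 7 for IL-6 6 h in HepG2 against NC, 5, 36, 2 and 8 for TNF-α 3 h, TNF-α 6 h, IL-6 3 h and IL-6 6 h in HepG2 against IL-10, and 29 for the difference of the 3 h Torin1 effect against NC. In a shared fit without HepG2 IL-6 3 h replicate 3, an alternative chosen after seeing the data, the counts were 8 for IL-6 6 h and 12 for IL-10 3 h against NC and 14, 38 and 9 for TNF-α 3 h, TNF-α 6 h and IL-6 6 h against IL-10.

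On leaving out each library the counts ranged, in HCT116 against NC, from 10 to 20 for TNF-α 6 h, 13 to 17 for IL-6 3 h, 13 to 16 for IL-6 6 h, 15 to 30 for IL-10 3 h and 15 to 29 for IL-10 6 h, from 0 to 1 for IL-6 3 h against IL-10, and from 11 to 20 for Torin1 6 h against 3 h. In HepG2 they ranged from 8 to 13 for TNF-α 6 h, 20 to 37 for IL-6 3 h and 1 to 2 for IL-10 6 h against NC, and from 2 to 8 for TNF-α 3 h, 12 to 15 for TNF-α 6 h, 17 to 46 for IL-6 3 h and 2 to 5 for IL-6 6 h against IL-10. With 3 libraries per group, changes of the smallest sizes given here lie near the spread between libraries.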
